A study of Mus musculus with 19 samples.

Results

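The endoplasmic reticulum (ER) chaperone and secretory stress genes are 35 genes, listed by symbol, whose products fold, oxidise, translocate or discard secretory proteins or sense the load of unfolded protein. The symbols were matched to the identifiers of the count table through the mouse GENCODE annotation of GRCm38, and 35 of 35 members were found among the 49089 genes counted. Of these, 34 passed the filter on low values (a CPM, the count scaled to library size, of 3 or more in no fewer than 3 of the 19 libraries), and Ern2 did not. Endometrium of wild-type C57Bl/6 female mice was profiled by RNA-seq in 5 groups, called here by the prefixes of their count columns. CONT comprised 3 libraries, numbered 1, 2 and 4, of untreated virgin estrous females collected around ovulation, whose age the sources used here do not give. INT comprised 4 libraries of females that had mated with intact BALB/c males and were collected at day 3.5 post-coitum (pc). SVX, SVX_VAS and VAS comprised 4 libraries each, collected at day 3.5 pc from females whose BALB/c mates had been altered by surgery. The methods give the age of mated females as 8 to 14 weeks. By the same methods, CONT was collected late in the evening and day 3.5 pc females at midday. Time of day therefore cannot be told apart from group in any comparison with CONT. Titles and treatment fields attribute vasectomised males to the SVX columns, seminal vesicle-deficient males to the SVX_VAS columns and males with both alterations to the VAS columns, which is not what the prefixes spell, so no surgery is assigned to these 3 groups. Every library was a pool of animals, with endometrium scraped off the myometrium, and p-values measure the spread between such pools.

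Proteins bound for secretion or for membranes enter the ER through the Sec61 channel, are folded by chaperones and oxidoreductases of the lumen, and are pulled back out for degradation when folding fails. When unfolded protein accumulates, the sensors encoded by Ern1, Eif2ak3 and Atf6 set off the unfolded protein response, which raises transcription of chaperone genes through the ER stress response element. Secretory epithelia carry a high load of this kind, and the uterine epithelium secretes abundantly under estrogen around ovulation.

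Library totals ranged from 12661266 to 31781270 counts, and a limit of 3 counts corresponded to between 0.0944 and 0.237 CPM, which covers counting error only. VAS replicates 2 and 3 stood apart from the other 17 libraries. Their 100 most abundant genes took 5.93% and 5.92% of the counts against 12.1% to 14.1% elsewhere, and they had a count for 25016 and 25037 genes against 27757 to 29626. Counts of members are therefore given with and without these libraries. The defining markers of epithelium, stroma and endothelium (Epcam, Pdgfra and Pecam1 among them) had counts in every library. Strand use in the counting is not given in the sources used here, and 9 members share exon sequence with a gene on the opposite strand (Hsp90b1, Manf, Pdia3, Pdia6, Syvn1, Derl2, Eif2ak3, Ddit3 and Sec61a1), so reads of both partners may be mixed in their counts. Hsp90b1, Manf and Pdia4, 3 members, also share exon sequence with a gene on their own strand.

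Because members are known to share a promoter element, the sequence from 250 bases before to 50 bases after each start was searched in the RefSeq promoter table (GRCm38.p6). An entry was held for 29 of the 35 members. The ER stress response element (ERSE), spelled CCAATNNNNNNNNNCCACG and searched on both strands, was found in 10 of the 29 members (34.5%) and in 37 of 27025 genes with an entry (0.137%). The elements are shown because they carry the letters that these members have in common. Each is read 5′ to 3′ on the strand that spells the element, with the fixed letters in capitals and the strand of the genome named.
Hspa5, chr2:34772025-34772043, forward strand: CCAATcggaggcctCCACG
Hsp90b1 upstream copy, chr10:86705638-86705656, reverse strand: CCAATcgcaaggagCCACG
Hsp90b1 downstream copy, chr10:86705533-86705551, forward strand: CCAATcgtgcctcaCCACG
Dnajc3, chr14:118937827-118937845, forward strand: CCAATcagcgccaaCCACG
Creld2, chr15:88819520-88819538, reverse strand: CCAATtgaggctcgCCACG
Calr, chr8:84847075-84847093, forward strand: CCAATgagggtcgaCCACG
Canx, chr11:50325800-50325818, reverse strand: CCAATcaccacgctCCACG
Pdia6, chr12:17266491-17266509, forward strand: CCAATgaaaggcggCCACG
Ero1lb, chr13:12565682-12565700, reverse strand: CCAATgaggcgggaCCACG
Syvn1, chr19:6046532-6046550, forward strand: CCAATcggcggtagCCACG
Derl3, chr10:75893242-75893260, reverse strand: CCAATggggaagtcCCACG

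Hsp90b1 held the element at 2 places, and Hspa5 held it from 65 to 47 bases before the RefSeq start. The GENCODE span of Hspa5 used for the counts begins earlier, at chr2:34771970, so the element lies inside that span. The second form of the element, ERSE-II, spelled ATTGGNCCACG and searched on both strands, was found in Dnajb11 and Herpud1 and in 12 of 27025 genes (0.0444%). In Dnajb11 it lay after the start, at bases 8 to 18.
Dnajb11, chr16:22857852-22857862, forward strand: ATTGGcCCACG
Herpud1, chr8:94386377-94386387, forward strand: ATTGGgCCACG

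The element of the unfolded protein response spelled TGACGTGG was found in 0 of the 29 members and in 0.714% of genes, both strands searched, which says only that these letters are not in this window. The amino acid response element spelled TGATGNAA, likewise searched on both strands, was found in Herpud1 and no other member, and in 4.51% of genes. The 250 bases before the start are printed for 3 members, 5′ to 3′ on the strand of the gene. Of the 10 members with an ERSE, Creld2 and Dnajc3 are those that fell in INT, and their promoters are shown with the fixed letters of the element in capitals (spelled on the opposite strand in Creld2). Sdf2l1 had the lowest logFC of the members in INT and has no match.
Creld2, chr15:88819396-88819645, forward strand: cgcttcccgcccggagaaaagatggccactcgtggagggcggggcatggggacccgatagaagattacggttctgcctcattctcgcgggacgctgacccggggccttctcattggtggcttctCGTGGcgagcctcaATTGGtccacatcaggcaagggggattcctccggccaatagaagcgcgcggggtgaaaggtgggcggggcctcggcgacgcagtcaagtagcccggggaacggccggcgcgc
Dnajc3, chr14:118937682-118937931, forward strand: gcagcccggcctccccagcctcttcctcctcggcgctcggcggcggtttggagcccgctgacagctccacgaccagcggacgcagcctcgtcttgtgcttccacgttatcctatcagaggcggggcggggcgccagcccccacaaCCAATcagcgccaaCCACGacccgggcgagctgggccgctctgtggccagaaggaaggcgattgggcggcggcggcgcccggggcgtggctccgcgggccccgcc
Sdf2l1, chr16:17132384-17132633, reverse strand: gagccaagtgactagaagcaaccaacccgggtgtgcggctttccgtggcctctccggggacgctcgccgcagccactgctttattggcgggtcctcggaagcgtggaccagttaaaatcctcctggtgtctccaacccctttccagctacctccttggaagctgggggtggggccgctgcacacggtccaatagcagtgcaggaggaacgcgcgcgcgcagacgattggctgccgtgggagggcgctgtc

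A match to these letters is a description of the sequence, and binding was not measured. In INT against CONT the 10 members with an ERSE had a median logFC (log2 fold-change) of -0.62, with 2 of 10 called lower. The 19 tested members with an entry and no ERSE had a median of -0.53, with 6 of 19 called lower, and the 5 with no entry had a median of -0.73, with 3 of 5 called lower. In INT, 12.7% of all genes tested were called lower. With an ERSE, 5 of 10 members were called lower in SVX, 5 of 10 in SVX_VAS and 7 of 10 in VAS, and with an entry and no ERSE 9 of 19, 9 of 19 and 15 of 19, beside 18.5%, 16.5% and 17.3% of all genes. No difference between these sets was tested.

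At estrus the abundant folding machinery led the members. Divided by exon length, P4hb, the founding protein disulfide isomerase, stood at 313 ± 37.9 CPM per kilobase (SD, n = 3), and Calr, a lectin chaperone, at 308 ± 43.9 CPM per kilobase. Hspa5, the main chaperone of the lumen, stood at 265 ± 33.6, Hsp90b1 at 251 ± 44.1 and Pdia3 at 232 ± 31.97 CPM per kilobase. The ranges of neighbours among these 5 genes overlapped, so their order was not separated by the spread between libraries. The lower end of the order held Ddit3 at 8.46 ± 1.31, Ero1lb at 3.96 ± 0.866 and Derl3 at 3.16 ± 0.358 CPM per kilobase. The sensors lay between these ends, with Ern1 at 24.9 ± 1.61, Atf6 at 13.6 ± 0.873 and Eif2ak3 at 12.2 ± 0.411 CPM per kilobase. Ern2, the sensor paralogue known from gut and airway epithelium, had 0 to 7 counts in a library and at most 0.315 CPM, and no test was made for it.

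The first comparison asked how these genes differ between the endometrium of day 3.5 pc and that of estrus. In INT, 11 of 34 members fell and 0 rose, by a false discovery rate (FDR) of 0.05 or less in edgeR's quasi-likelihood test and a change of 1.5-fold or more. By the FDR alone, with no cutoff on the fold, 18 were lower in INT (21.8% of all genes), 23 in SVX (28%), 24 in SVX_VAS (25.9%) and 31 in VAS (26.9%). The lumenal chaperones made up 7 of the 11. The share that fell was 32.4%, beside 12.7% of all 17222 genes tested that were called lower, and 20.9% of all genes were called higher. Without VAS replicates 2 and 3 in the shared fit, 15 members fell, beside 14.3% of all genes. The count was 6 without INT replicate 4 (9.93% of all genes), 7 without CONT replicate 1 (10.3%) and 7 without CONT replicate 4 (11.4%). The logFC was below 0 for 33 of 34 members, with a median of -0.53 beside -0.01 for all genes. All 4 INT libraries lay below all 3 CONT libraries for 30 members (88.2%), beside 31.3% of all genes. For this comparison and at these cutoffs, the study itself lists Adam33 and Aspg as the only lower genes, and neither is a member. Why its calls differ from those given here was not tested. Cell-type and hormone-response markers also differed between INT and CONT, some lists lower and some higher. The epithelial markers summed to 4876 to 6556 CPM over 10 genes in CONT and 818 to 3075 CPM in INT, with 7 of 10 called lower. Epcam, the first of them, stood at 466 to 679 CPM in CONT and 85.04 to 359 CPM in INT. The endothelial markers, 6 of 6 called higher, summed to 175 to 258 CPM in CONT and 666 to 994 CPM in INT, and the stromal markers, 6 of 10 called higher, to 6322 to 6789 CPM and 8435 to 11009 CPM. The estrogen-response markers, 2 of 9 tested called lower, summed to 15907 to 18513 CPM in CONT and 248 to 11886 CPM in INT. Their part in the result was not tested, and in tissue samples fewer cells of a type and less RNA per cell cannot be told apart.

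**Figure D1:**
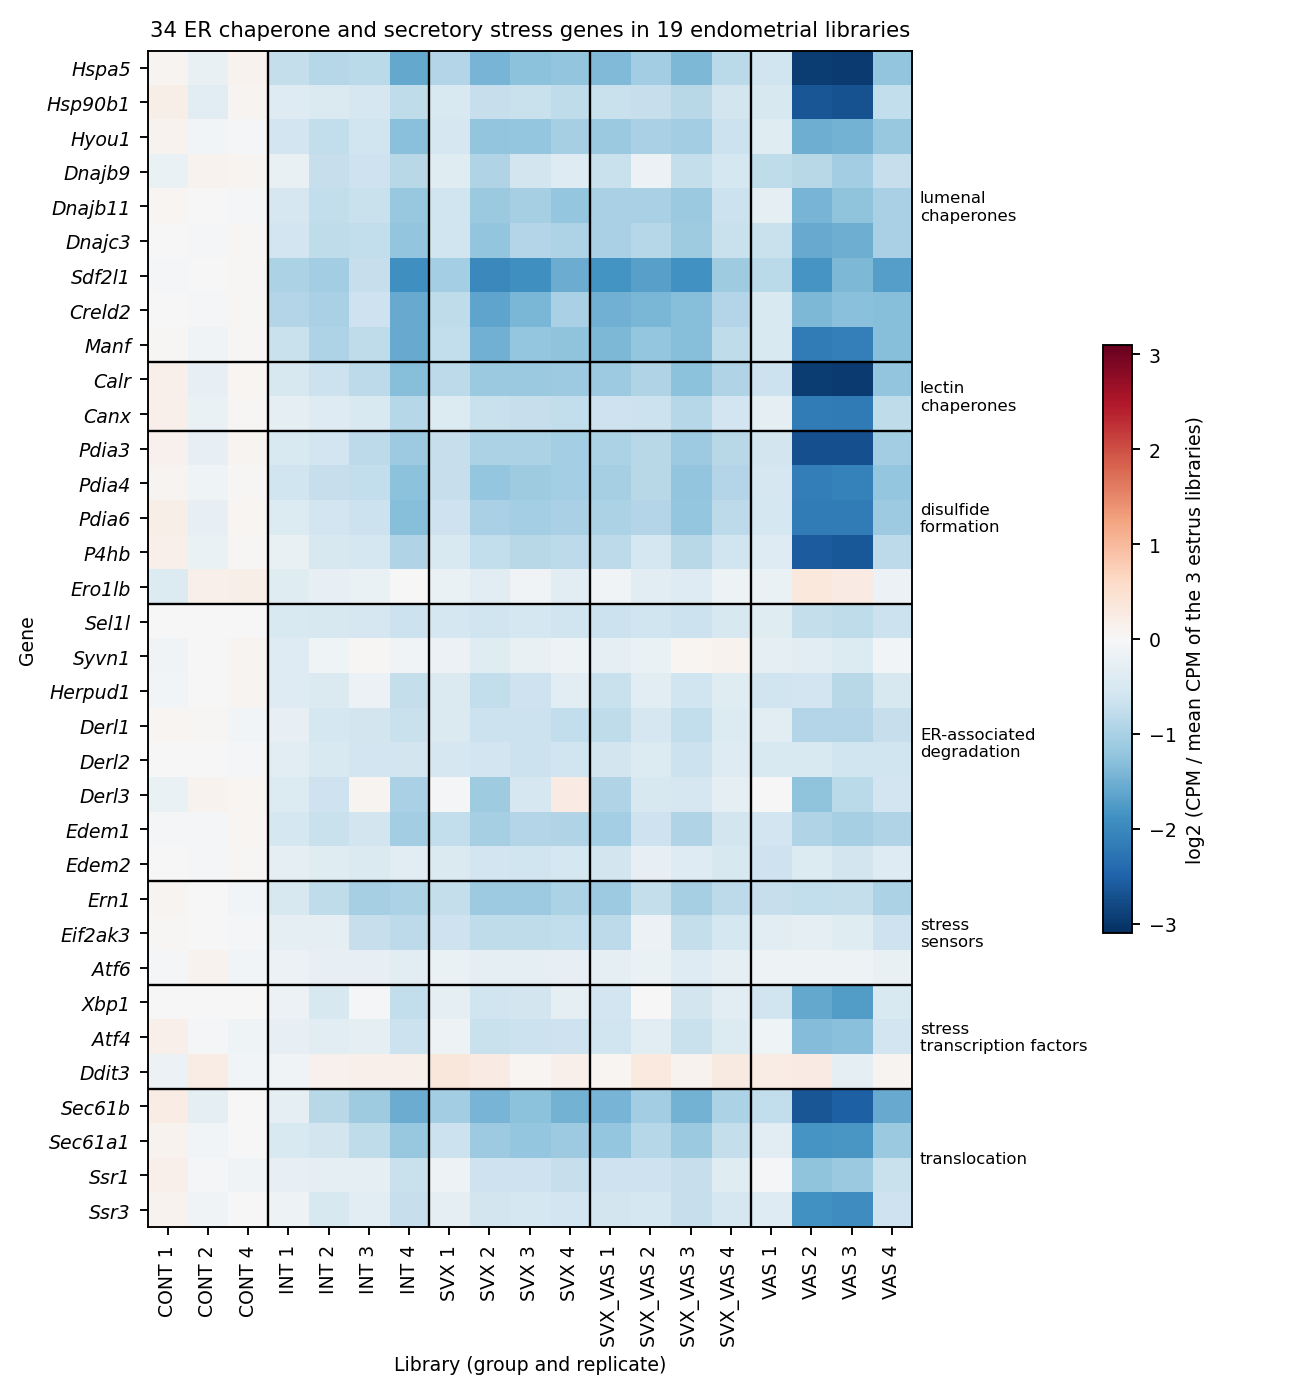
Heatmap of the 34 tested members (rows, grouped by role) in the 19 libraries (columns, by group and replicate number), where colour gives the log2 ratio of a library's CPM to the mean CPM of the 3 CONT libraries. Nearly all rows are below 0 in the mated libraries, Ddit3 stays near 0, and VAS replicates 2 and 3 have the lowest values for Hspa5, Hsp90b1, Calr and P4hb.

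Among the lumenal chaperones, Sdf2l1, a partner of the cochaperone Dnajb11, showed the lowest logFC of all members. Its level was 35.4, 36.1 and 37.6 CPM in CONT replicates 1, 2 and 4, and 18.5, 17.3, 22.2 and 9.66 CPM in INT replicates 1 to 4. The groups did not overlap, and INT replicate 4 was the lowest. The logFC was -1.10 ± 0.29 (SE, FDR = 0.00546). Creld2, an ER-resident protein known to be induced by misfolded protein, stood at 69.6, 69 and 72.5 CPM in CONT and 37.5, 35.2, 44.9 and 24.01 CPM in INT. Its logFC was -0.99 ± 0.25 (FDR = 0.00373), again with no overlap and the lowest value in INT replicate 4. Manf, a secreted factor that is held in the ER lumen and binds the Hspa5 protein, stood at 158, 143 and 158 CPM in CONT and 94.4, 78.5, 89.1 and 52.1 CPM in INT (logFC -0.96 ± 0.33, FDR = 0.0226).

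Dnajc3, Dnajb11 and Dnajb9, the J-domain cochaperones of Hspa5 among the members, fell. Dnajc1 and Dnajc10, ER J-domain proteins outside the members, were named after their values were seen and were not called, with a logFC of 0.39 (FDR = 0.00658) and -0.0026 (FDR = 0.991). Dnajc3 stood at 389, 380 and 398 CPM in CONT and 258, 226, 231 and 166 CPM in INT, a logFC of -0.82 ± 0.20 (FDR = 0.00304). Dnajb11 had a logFC of -0.77 ± 0.22 (FDR = 0.00982) and Dnajb9, which also binds unfolded substrates for degradation, -0.59 ± 0.17 (FDR = 0.00814), close to the cutoff on the fold. Hyou1, the nucleotide exchange factor of Hspa5, had a logFC of -0.80 ± 0.25 (FDR = 0.0150). Dnajb11, Dnajc3, Sdf2l1, Creld2, Edem1 and Ern1 passed in all 14 alternative fits. Hyou1 passed in 12 of 14 (highest FDR 0.0548 in edgeR's test or an alternative to it), Manf in 11 (0.0700), Pdia4 in 11 (0.0866), Dnajb9 in 7 (0.0335, so that the fold decided) and Sec61a1 in 5 (0.122).

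Hspa5, at chr2:34771970-34777547 on GRCm38, stood at 1189, 956 and 1213 CPM in CONT. In INT it stood at 672, 602, 625 and 370 CPM, with no overlap between the groups and the lowest value again in replicate 4. The logFC of -0.98 ± 0.43 did not pass (FDR = 0.0698) in the fit of all 19 libraries. Hspa5 passed in 3 of 14 alternative fits, with a highest FDR of 0.171. Without VAS replicates 2 and 3, where Hspa5 was at 145 and 143 CPM, the same difference was -0.96 ± 0.21 and passed (FDR = 0.00124). Hsp90b1, the other major chaperone of the lumen, had a logFC of -0.53 ± 0.40 (FDR = 0.290) and, without those libraries, -0.51 ± 0.13 (FDR = 0.00344), past the FDR cutoff but short of the cutoff on the fold.

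The lectin chaperones, which hold glycoproteins while they fold, did not pass in the fit of all libraries. Calr stood at 991, 747 and 924 CPM in CONT and 624, 563, 508 and 355 CPM in INT, with no overlap and a logFC of -0.79 ± 0.41 (FDR = 0.127). Calr passed in 2 of 14 alternative fits, with a highest FDR of 0.267. Without VAS replicates 2 and 3 its logFC was -0.77 ± 0.18 and passed (FDR = 0.00220). Canx, the membrane-bound lectin, had a logFC of -0.50 ± 0.34 (FDR = 0.243), and -0.48 ± 0.15 without them (FDR = 0.0119).

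Among the 5 genes of disulfide formation, Pdia4 passed. It stood at 422, 362 and 412 CPM in CONT and 260, 242, 237 and 164 CPM in INT, a logFC of -0.82 ± 0.29 (FDR = 0.0289). Pdia3, which works with the lectin chaperones, had a logFC of -0.72 ± 0.39 (FDR = 0.136), Pdia6 -0.71 ± 0.31 (FDR = 0.0743) and P4hb -0.53 ± 0.40 (FDR = 0.297). Without VAS replicates 2 and 3, Pdia3 (FDR = 0.00175) and Pdia6 (FDR = 0.00710) passed as well. Each passed in 2 of 14 alternative fits, with highest FDR values of 0.275 and 0.200. Ero1lb, an oxidase that recharges the isomerases, overlapped between the groups, at 12.5 to 19.1 CPM in CONT and 12.9 to 16.5 CPM in INT (logFC -0.21 ± 0.16, FDR = 0.316).

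ER-associated degradation had a median logFC of -0.47 over its 8 members, with 1 past both cutoffs. That member was Edem1, which hands misfolded glycoproteins on for degradation. It stood at 202, 203 and 214 CPM in CONT and 142, 127, 140 and 98.02 CPM in INT (logFC -0.70 ± 0.14, FDR = 5.97e-04). Sel1l, Herpud1, Derl1, Derl2 and Edem2 passed the FDR cutoff but not that on the fold. Herpud1, a stress-induced organiser of the degradation complex, had a logFC of -0.43 ± 0.13, the derlins Derl1 and Derl2 -0.51 ± 0.14 and -0.49 ± 0.08, and Edem2, a mannosidase that marks glycoproteins, -0.37 ± 0.08. Sel1l, the adaptor of the Syvn1 ubiquitin ligase, stood at 251 to 256 CPM in CONT and 160 to 182 CPM in INT, a logFC of -0.54 ± 0.09 (FDR = 1.18e-04). Syvn1 itself overlapped between the groups, at 67.9 to 77.9 CPM in CONT and 55.4 to 74.3 CPM in INT (logFC -0.15 ± 0.11, FDR = 0.309). Derl3, a member of the derlin family of the ER membrane, overlapped as well, at 3.69 to 4.60 CPM in CONT and 2.10 to 4.45 CPM in INT.

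The 3 tested sensors all had a logFC below 0, and 1 passed both cutoffs. Ern1, which encodes the sensor that splices Xbp1 RNA, stood at 217, 203 and 191 CPM in CONT and 145, 118, 99.3 and 103 CPM in INT, with no overlap and a logFC of -0.81 ± 0.13 (FDR = 1.54e-04). Eif2ak3, whose kinase slows translation under stress, stood at 70.8 to 75.5 CPM in CONT and 42.1 to 60.3 CPM in INT (logFC -0.51 ± 0.15, FDR = 0.00945), short of the cutoff on the fold. Atf6, whose product is released from the membrane as a transcription factor, stood at 119 to 134 CPM in CONT and 100 to 111 CPM in INT (logFC -0.25 ± 0.06, FDR = 0.00307), also short of it. Whether Ern1 and Atf6 differed from each other in their change was not tested.

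None of the 3 stress transcription factors passed. Xbp1 was even in CONT, at 321, 321 and 324 CPM, and spread in INT, at 286, 228, 307 and 189 CPM. Its logFC was -0.35 ± 0.26 (FDR = 0.291), and counts per gene do not separate spliced from unspliced Xbp1. Atf4, which is controlled mainly in its translation, had a logFC of -0.38 ± 0.23 (FDR = 0.197). Ddit3, a factor of prolonged stress, stood at 12.8, 17.1 and 13.6 CPM in CONT and 13.5, 15.8, 16.1 and 16.03 CPM in INT, and was the single member with a logFC above 0 (0.08 ± 0.14, FDR = 0.670).

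Of the 4 translocation genes, Sec61a1, the pore-forming subunit of the channel, passed, with 576, 504 and 529 CPM in CONT and 387, 362, 310 and 238 CPM in INT (logFC -0.73 ± 0.28, FDR = 0.0438). Sec61b, a small channel subunit, stood at 89.8, 63.1 and 77.1 CPM in CONT and 62.6, 42.4, 35.5 and 26.6 CPM in INT. The groups nearly touched, since INT replicate 1 lay just below CONT replicate 2. The logFC was -0.88 ± 0.36 (FDR = 0.0554), passing without VAS replicates 2 and 3 (FDR = 0.00886). Sec61b passed in 5 of 14 alternative fits, with a highest FDR of 0.169. Ssr1 and Ssr3, of the complex beside the channel, had logFC values of -0.37 ± 0.23 (FDR = 0.200) and -0.42 ± 0.28 (FDR = 0.249).

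**Figure D2:**
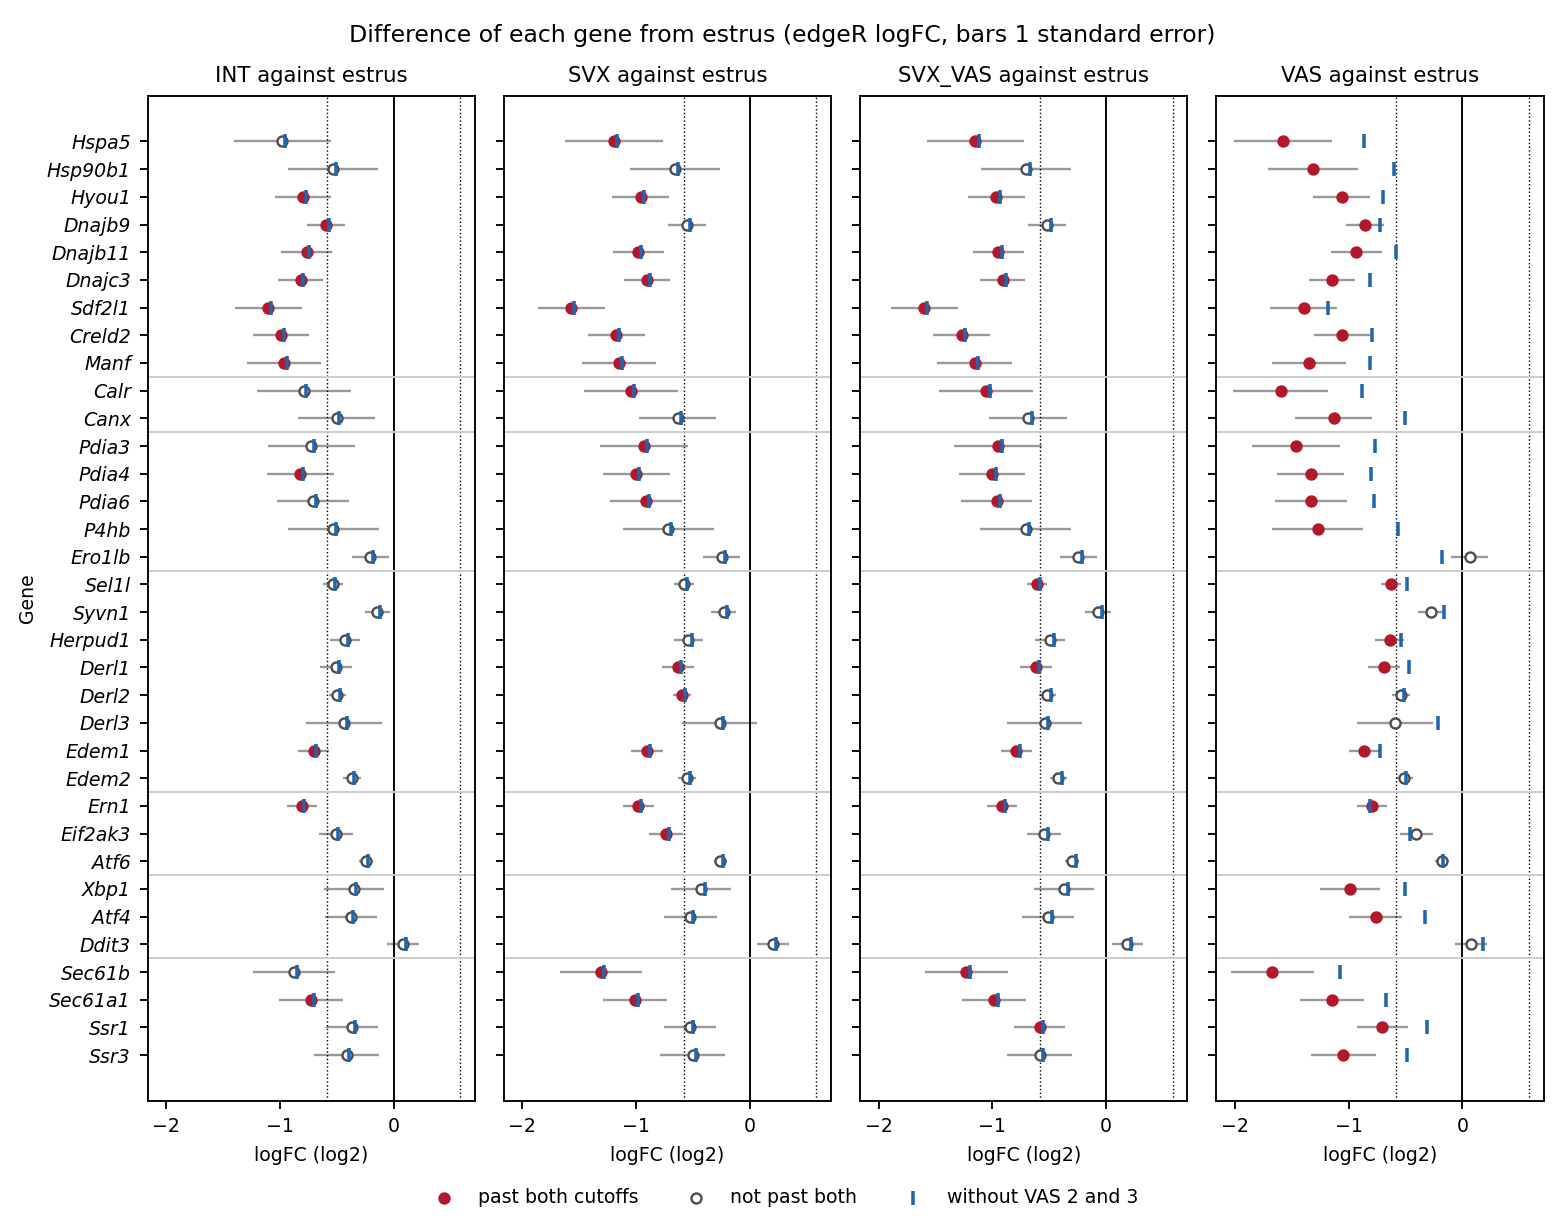
Difference of each tested member from estrus (x axis, edgeR logFC on the log2 scale, bars 1 standard error) for INT, SVX, SVX_VAS and VAS against CONT, where filled points passed both cutoffs, dotted lines mark a 1.5-fold change, and blue ticks give the value without VAS replicates 2 and 3. No point to the right of 0 is filled, and in VAS the filled points number 26 of 34.

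The other 3 mated groups were compared with the same CONT libraries, so these comparisons are not independent of the first. In SVX, 18 of 34 members fell and 0 rose (52.9%), beside 18.5% of all genes called lower and 23.1% called higher. Without VAS replicates 2 and 3 in the fit 20 members fell, beside 19.8% of all genes. The median logFC of the members was -0.69 beside -0.01 for all genes, and 31 members lay below CONT with no overlap, beside 35.7% of all genes. Sdf2l1 stood at 17.4, 9.12, 9.80 and 12.6 CPM in SVX replicates 1 to 4, a logFC of -1.57 ± 0.30 (FDR = 2.85e-04). Sec61b stood at 36.1, 28.1, 31.6 and 27.9 CPM (logFC -1.31 ± 0.36, FDR = 0.00553). Hspa5 stood at 594, 415, 465 and 480 CPM and passed (logFC -1.20 ± 0.43, FDR = 0.0250), as it did in 8 of 14 alternative fits, with a highest FDR of 0.0632. All SVX libraries lay below all CONT libraries for these 3 genes. Of the 3 tested sensors, Atf6 did not pass both cutoffs. Ern1, at 92.7 to 123 CPM (logFC -0.98 ± 0.13, FDR = 1.77e-05), and Eif2ak3, at 42.7 to 47.5 CPM (logFC -0.74 ± 0.15, FDR = 4.88e-04), passed. The epithelial markers summed to 878 to 1242 CPM in SVX, with 8 of 10 called lower, and 9 of 9 estrogen-response markers tested were called lower. The endothelial markers (6 of 6) and stromal markers (6 of 10) were called higher, and 2 of 8 proliferation markers lower.

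In SVX_VAS, 18 of 34 members fell and 0 rose, beside 16.5% of all genes called lower and 22.2% called higher, and without VAS replicates 2 and 3 in the fit 19 members fell, beside 17.8%. The median logFC of the members was -0.70 beside -0.02 for all genes. With no overlap, 30 members lay below CONT, beside 34% of all genes. Sdf2l1 stood at 9.997, 11.3, 9.89 and 16.8 CPM in replicates 1 to 4 (logFC -1.60 ± 0.29, FDR = 2.95e-04), and Creld2 at 24.97, 26.2, 28.3 and 37.3 CPM (logFC -1.27 ± 0.25, FDR = 4.94e-04). Hspa5 stood at 437, 533, 425 and 624 CPM (logFC -1.15 ± 0.43, FDR = 0.0324), and passed in 7 of 14 alternative fits, with a highest FDR of 0.0795. Dnajb9, Ero1lb, Syvn1 and Ddit3 were the members whose SVX_VAS and CONT libraries overlapped, and Syvn1 had a logFC of -0.07 ± 0.11 (FDR = 0.638). The epithelial markers summed to 1037 to 2360 CPM in SVX_VAS, with 8 of 10 called lower. The estrogen-response markers were called lower for 3 of 9 tested and the proliferation markers for 4 of 8, and the endothelial markers were called higher for 6 of 6 and the stromal markers for 6 of 10.

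In VAS, 26 of 34 members fell and 0 rose (76.5%), beside 17.3% of all genes called lower and 23.3% called higher. Without VAS replicates 2 and 3, 17 members fell, beside 13.2% of all genes, and the median logFC moved from -0.96 to -0.57, with -0.07 and 0.03 for all genes. With all libraries, 29 members lay below CONT with no overlap, beside 28.3% of all genes. Hspa5 stood at 728, 145, 143 and 481 CPM in VAS replicates 1 to 4, so that its logFC was -1.58 ± 0.43 with all libraries (FDR = 0.00522) and -0.86 ± 0.26 without replicates 2 and 3 (FDR = 0.0118). Calr stood at 562, 116, 113 and 383 CPM, a logFC of -1.60 ± 0.42 (FDR = 0.00384), or -0.88 ± 0.22 without them (FDR = 0.00475). Hspa5 and Calr each passed in 13 of 14 alternative fits, with highest FDR values of 0.0772 and 0.0713. Both genes were lowest in replicates 2 and 3. Xbp1 stood at 212, 107, 97.3 and 233 CPM and passed with all libraries (logFC -0.99 ± 0.26, FDR = 0.00447), but fell short of the cutoff on the fold without them (logFC -0.51 ± 0.20, FDR = 0.0473). Ern1 stood at 124, 121, 122 and 104 CPM, with a logFC of -0.79 ± 0.13 with all libraries (FDR = 1.35e-04) and -0.81 ± 0.17 without them (FDR = 0.00173). The epithelial markers summed to 663 to 2731 CPM in VAS, with 8 of 10 called lower. Of the estrogen-response markers 4 of 9 tested were called lower, as was 1 of 8 proliferation markers, and 6 of 6 endothelial and 5 of 10 stromal markers were called higher. The part of these markers in the 3 comparisons was not tested.

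**Figure D3:**
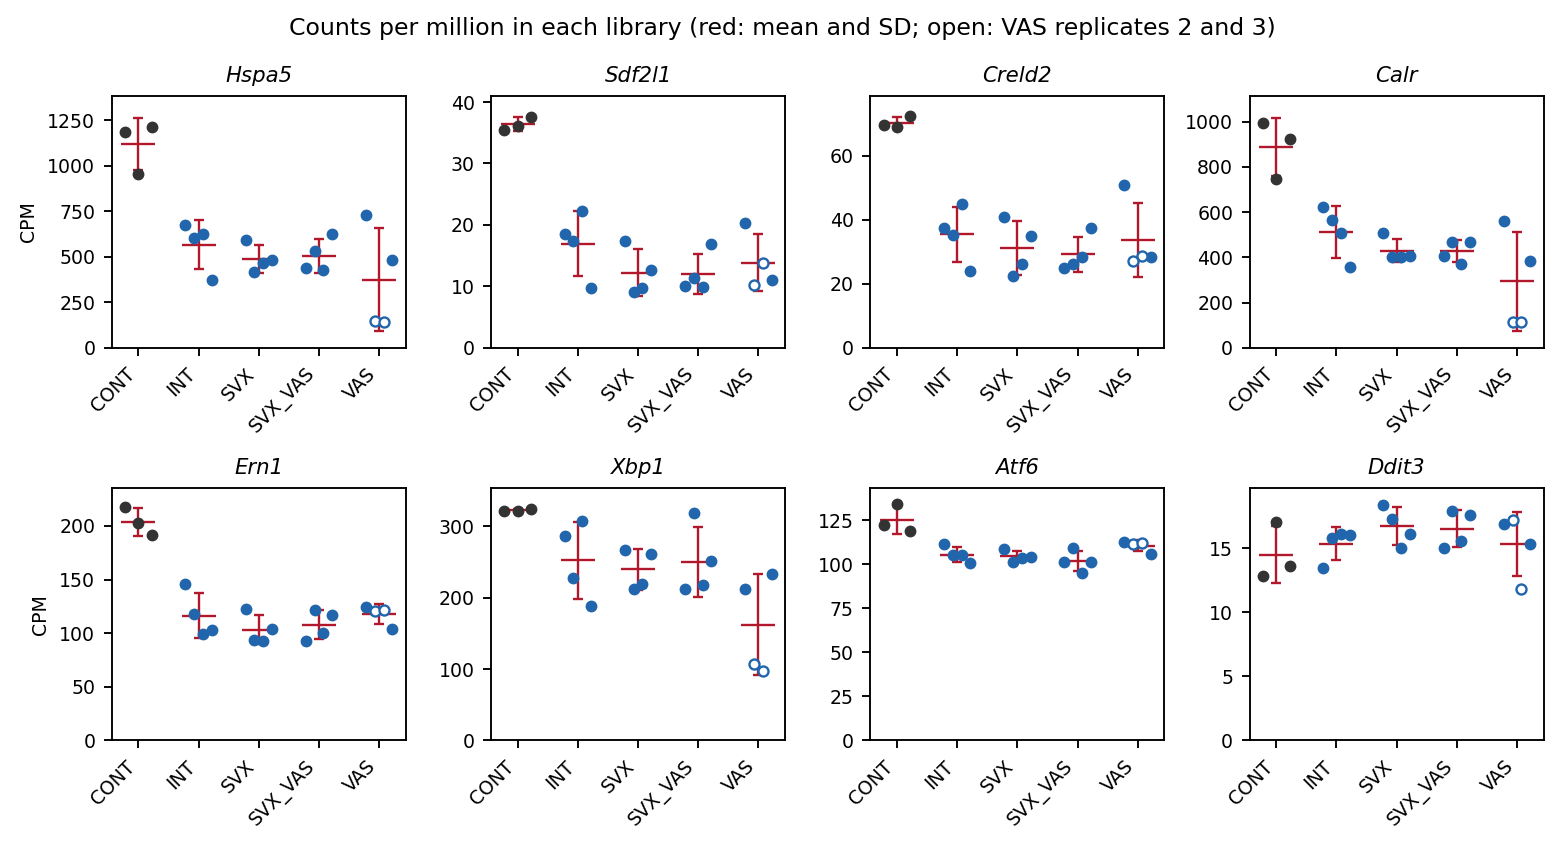
Level of 8 members in each library (y axis, CPM from 0; x axis, group; points, libraries, with VAS replicates 2 and 3 as open points; red, mean and SD). Hspa5, Calr and Xbp1 have their lowest points in VAS replicates 2 and 3, Ern1 and Atf6 do not, and Ddit3 overlaps between CONT and every mated group.

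The difference of VAS replicates 2 and 3 from replicates 1 and 4 went with the level of a gene. The median log2 difference of all genes was 0.31 below 4 log2 CPM (6753 genes), 0.08 from 4 to 6, -0.19 from 6 to 8, -0.68 from 8 to 9 and -1.24 above 9 log2 CPM (136 genes). The median of the members lay below that of all genes in each of these classes, at -2.02 for the 4 members above 9 log2 CPM and -1.39 for the 5 from 8 to 9. Hsp90b1 (-2.04), Hspa5 (-2.04), Calr (-2.02) and P4hb (-2.001) had the lowest log2 differences. Sec61b (-1.42) and Manf (-1.24), at lower levels, were also below their classes. The sensors Ern1 (0.09), Atf6 (0.03) and Eif2ak3 (0.17) were nearly level, and Ero1lb (0.49) was higher. Marker sums also differed between these libraries. The stromal markers summed to 10701, 2219, 2418 and 8685 CPM in VAS replicates 1 to 4, and the neutrophil markers to 21.6, 53.3, 69.04 and 12.7 CPM. No test was made of this pattern, which was seen in these libraries, and the part of the markers in it was not tested.

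**Figure D4:**
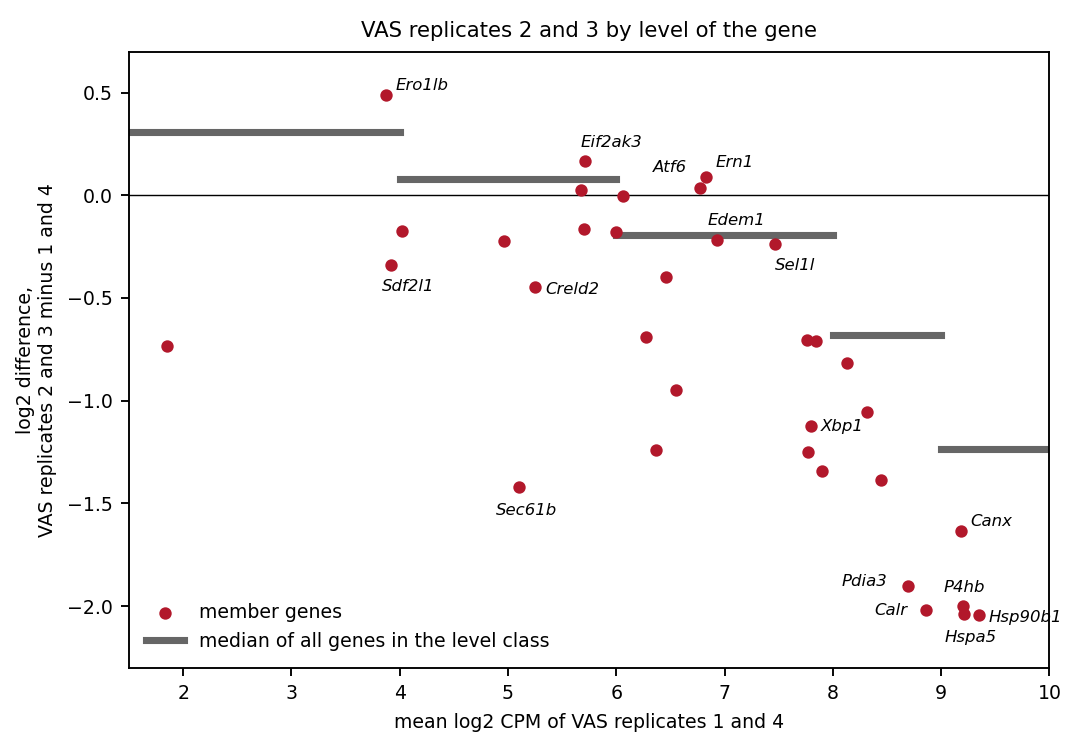
Log2 difference of VAS replicates 2 and 3 from replicates 1 and 4 (y axis) against the mean log2 CPM of replicates 1 and 4 (x axis), where red points are the 34 tested members and grey bars are the median of all tested genes in each level class. Hspa5 and Hsp90b1 lie at -2.04, below the bar of their class at -1.24, and Ern1, Atf6 and Eif2ak3 lie near 0.

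The comparisons with INT asked whether the males' alteration went with a difference among mated females. By edgeR's quasi-likelihood test 0 members passed in SVX, SVX_VAS and VAS, and the shares of all genes called were 0%, 0% and 0%. At an unadjusted p under 0.05 there were 1, 0 and 3 of 34 members, beside 4.35%, 1.97% and 10.6% of all genes, which is no more than the share over all genes in any of the 3. DESeq2 and limma-voom also called 0 members in each. Over all 17222 genes, DESeq2 called 3 lower in SVX, 1 lower and 1 higher in SVX_VAS and 0 in VAS, while limma-voom called 0, 0 and, in VAS, 1643 lower and 20 higher. Edem2 was the member under 0.05 in SVX, with a logFC of -0.19 ± 0.07 (unadjusted p = 0.0206 in edgeR). In VAS these were Xbp1 (logFC -0.64 ± 0.25), Ssr3 (logFC -0.63 ± 0.27) and Sec61b (logFC -0.79 ± 0.34), and without replicates 2 and 3 their values were -0.18 ± 0.19, -0.09 ± 0.14 and -0.23 ± 0.29. The median logFC of the members was -0.16 in SVX, -0.15 in SVX_VAS and -0.28 in VAS, the last -0.02 without replicates 2 and 3. Without VAS replicate 1, 11 members were lower in VAS than in INT, beside 2.71% of all genes. These were Manf, Calr, Canx, Pdia3, Pdia4, Pdia6, Atf4, Sec61b, Sec61a1, Ssr1 and Ssr3, with FDR values of 0.0454 to 0.0492 in edgeR, and that fit leaves replicates 2 and 3 as 2 of the 3 VAS libraries.

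Libraries of the same mated group differed in many members in the same direction. SVX replicate 1 was above the other 3 SVX libraries for 29 of 34 members, a position that it held for 35.01% of all genes, and INT replicate 1 was above the other INT libraries for 25 of 34 (30.2% of all genes). INT replicate 4 was below the other 3 for 28 of 34 members (23.45% of all genes). SVX_VAS replicate 4 was above the others for 20 members (24.1% of all genes) and SVX_VAS replicate 2 for 13 (28.2% of all genes). The median log2 difference of the members from the CONT mean was -0.39, -0.55, -0.58 and -0.90 in INT replicates 1 to 4, while that of all genes lay between -0.02 and 0.01. In SVX it was -0.52 in replicate 1 and -0.85, -0.74 and -0.77 in the others. Markers varied among the same libraries. Ltf, which encodes the estrogen-driven lactotransferrin, stood at 2157, 643, 27.4 and 45.3 CPM in INT replicates 1 to 4, and Epcam at 359, 270, 85.04 and 93.3 CPM. Mki67, a proliferation marker, stood at 252, 582, 575 and 389 CPM in INT replicates 1 to 4, lowest in replicate 1, where most members were highest. In SVX, Ltf stood at 273, 33.03, 20.04 and 15.5 CPM and Mki67 at 577, 366, 314 and 315 CPM in replicates 1 to 4. Both were highest in replicate 1, where most members were highest too. In SVX_VAS, Ltf stood at 16.7, 2301, 21.03 and 194 CPM and Mki67 at 340, 219, 239 and 347 CPM in replicates 1 to 4. VAS replicate 1 was above VAS replicate 4 for 28 of 34 members (49.3% of all genes). In these 2 libraries Ltf stood at 713 and 38.1 CPM, Epcam at 320 and 89.5 CPM and Mki67 at 699 and 386 CPM. The part of these markers in the members' spread was not tested.

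Other genes of the pathway, in lists drawn up by function, were counted in INT against CONT beside the same 12.7% of all genes called lower and 20.9% called higher. Of 33 tested genes of translocation and glycosylation outside the members, 13 fell and 0 rose, with a median logFC of -0.51. Among them Sec11c, a subunit of the signal peptidase, went from 136 ± 7.44 CPM (SD, n = 3) in CONT to 57.2 ± 21.7 CPM (SD, n = 4) in INT, a logFC of -1.25 ± 0.27 (FDR = 0.00130). Stt3b and Rpn1, of the oligosaccharyltransferase, had logFC values of -0.86 ± 0.22 (FDR = 0.00442) and -0.83 ± 0.31 (FDR = 0.0348). Of 40 other folding genes 10 rose and 3 fell. Rcn1, a calcium-binding protein of the lumen, rose from 42.6 ± 6.53 to 181 ± 31.9 CPM (logFC 2.09 ± 0.24, FDR = 8.73e-06). Uggt2, related to the folding sensor of glycoproteins, rose with a logFC of 1.84 ± 0.20, and Fkbp10, a prolyl isomerase known for its part in collagen folding, with 1.56 ± 0.16. Among those that fell, Sil1, another exchange factor of Hspa5, had a logFC of -0.89 ± 0.20 (FDR = 0.00145), Fkbp11 -0.91 ± 0.31 (FDR = 0.0216) and Erp44, which retrieves proteins from the Golgi, -0.64 ± 0.12 (FDR = 3.68e-04).

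Of 30 further genes of ER-associated degradation 3 fell (Svip, Man1b1 and Rnf5) and 0 rose, and of 40 genes of transport between ER and Golgi 5 rose and 2 fell. Those that fell were Copz1, of the coat of returning vesicles, and Tmed10, a cargo receptor, with logFC values of -0.81 ± 0.20 and -0.66 ± 0.21. Of 27 ATF4 pathway targets tested 6 rose and 2 fell, with a median logFC of -0.15. Phgdh, the first enzyme of serine synthesis, rose from 5.80 ± 1.46 to 28.95 ± 11.04 CPM (logFC 2.32 ± 0.27), and Ddit4, a stress-induced inhibitor of growth signalling, fell from 155 ± 26.5 to 42.8 ± 19.8 CPM (logFC -1.86 ± 0.27, FDR = 4.90e-05). Of 25 other stress signalling genes 5 rose and 4 fell. Wfs1, a membrane protein of the ER, fell from 136 ± 6.99 to 34.2 ± 17.99 CPM (logFC -1.99 ± 0.37), and Casp12, a caspase of the ER, rose (logFC 1.43 ± 0.22). Of 19 cytosolic heat shock genes 2 rose and 4 fell, with Hspa1b, an inducible cytosolic chaperone, going from 156 ± 14.5 to 40.5 ± 16.4 CPM (logFC -1.95 ± 0.39, FDR = 6.71e-04).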

How the data were processed

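RNA-seq of endometrium was deposited as 1 table of read counts for 49089 genes in 19 libraries. Per the labels and the study's methods, the authors extracted RNA with Trizol, prepared stranded total RNA libraries, trimmed paired-end reads with AdapterRemoval version 2, aligned them to GRCm38 with STAR and counted them with featureCounts. Other versions and the strand setting are not given in the sources used here. Column prefixes and titles name the males' surgery differently, and groups follow the prefixes.

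From these deposited counts, libraries were scaled by TMM in edgeR 4.0.16 (R 4.3.3), genes were kept where 3 or more libraries reached 3 CPM (17222), and all 19 libraries were fitted in 1 quasi-likelihood model with a term for each group. The 7 comparisons used Benjamini-Hochberg adjusted p (FDR) over all genes tested, with cutoffs of 0.05 on the FDR and 1.5-fold on the size of the change. Levels are CPM (library totals multiplied by TMM factors), and logFC is a log2 fold-change. DESeq2 1.42.0, limma-voom (limma 3.58.1), other scaling, filtering, fits and left-out libraries were alternatives, and the steps were tested on simulated data. The members and lists were chosen with earlier results of these data known. All members are described, and of other pathway lists those named come from the 3 highest rises and 3 lowest falls past both cutoffs in INT, except Dnajc1 and Dnajc10, which were chosen after their values were seen. Total counts per library, 12661266 to 31781270, set the precision of low genes.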

Additional observations from a re-analysis of the deposited data

Results flagged for a closer look

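Of 136 groups of 4 libraries searched over the 34 tested members, 11 had a library whose gap to its nearest neighbour was larger, as a part of the group's range, than Dixon's critical value for 4 values, which chance passes in about 1 in 20 groups, or 6.8 of those searched. SVX replicate 1 was the highest in 7 of them. There Calr stood at 507.24 CPM (399.11 to 407.16 in the other SVX libraries), Pdia6 at 273.36 CPM (205.37 to 211.79), Eif2ak3 at 47.508 CPM (42.712 to 43.417) and Atf4 at 107.94 CPM (75.812 to 77.735). In the same library Sec61a1 stood at 337.38 CPM (234.26 to 247.68), Ssr1 at 323.05 CPM (220.81 to 233.16) and Ssr3 at 400.78 CPM (327.63 to 338.19). In INT, Ddit3 was lowest in replicate 1 at 13.463 CPM (15.818 to 16.084 in the others), and Ssr1 was lowest in replicate 4 at 226.14 CPM (296.45 to 305.41). In VAS, Creld2 was highest in replicate 1 at 51.014 CPM (27.013 to 28.687), and Atf6 was lowest in replicate 4 at 105.98 CPM (111.64 to 112.34).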

How the results depend on the processing

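The count of members that fell in INT against CONT, 11, was 10 with DESeq2 size factors (12.5% of all genes called lower), 13 by DESeq2 (13.1%), 11 by limma-voom (15.4%), 16 with only the 2 groups in the fit (14.8%) and 18 with no cutoff on the logFC (21.8%). Leaving out 1 library at a time gave 6 to 14, with 7 without CONT replicate 1, 7 without CONT replicate 4 and 6 without INT replicate 4. These counts ranged from 14 to 22 in SVX, from 13 to 16 in SVX_VAS and from 23 to 27 in VAS. The share of all genes called lower in those fits was 9.93% to 14.8% in INT, 16.6% to 19.2% in SVX, 14.1% to 17.6% in SVX_VAS and 13.7% to 22.9% in VAS. The VAS count, 26, was 17 with only the 2 groups in the fit (13.3% of all genes) and 17 without VAS replicates 2 and 3 (13.2%). DESeq2 called 18.2%, 16.4% and 17.7% of all genes lower in SVX, SVX_VAS and VAS against CONT. By limma-voom these shares were 19.1%, 18.5% and 28.2%, beside 18.5%, 16.5% and 17.3% by edgeR's test. Against INT, members called were 0 under every alternative run except VAS without VAS replicate 1, where 11 were lower, so leaving out 1 library gave 0 to 11. With the replicate number as a block, 9, 15, 13 and 26 members fell in INT, SVX, SVX_VAS and VAS against CONT, beside 12.3%, 17.6%, 15.6% and 16.9% of all genes. Libraries of the same number correlated from -0.69 to 0.58 in their deviations from the group means, beside -0.75 to 0.77 for libraries of different number. INT replicate 1, for example, correlated at 0.33 with SVX replicate 1 and at -0.69 with SVX_VAS replicate 1. Whether libraries of the same number share a batch was not tested. In VAS against CONT, Ero1lb (logFC 0.06) turned to -0.11 without CONT replicate 1, -0.01 without VAS replicate 2 and -0.18 without VAS replicates 2 and 3, ranging from -0.11 to 0.17 over single left-out libraries. Ddit3 (logFC 0.08) turned to -0.0028 without CONT replicate 1 and ranged from there to 0.21. None of these passed the test. The cause was not tested. A fit of INT, SVX or SVX_VAS without VAS replicates 2 and 3 was chosen after seeing the data. Depth limits Ern2, which stayed near the limit of 3 counts.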

Other observations

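Further marker lists were summed in INT and CONT. Glandular epithelium markers summed to 230 to 272 CPM in CONT and 141 to 505 CPM in INT, with 4 of 8 called higher and 2 lower. Progesterone-response markers summed to 304 to 344 CPM and 760 to 1320 CPM, with 9 of 10 called higher. Plasma cell markers, a type known for abundant ER, summed to 181 to 273 CPM in CONT and 212 to 486 CPM in INT, with 4 of 5 tested called higher. Proliferation markers summed to 1241 to 2096 CPM in CONT and 755 to 1538 CPM in INT, ranges that overlap, with 0 of 8 called by edgeR's test. Macrophage markers summed to 142 to 240 CPM in CONT and 242 to 325 CPM in INT, with 5 of 7 tested called higher and 1 lower. Red blood cell markers summed to 27.2 to 39.2 CPM in CONT and 55.2 to 96.0 CPM in INT, with 4 of 5 called higher. Neither range overlapped between the groups. Smooth muscle markers (1 of 6 called higher) and neutrophil markers (1 of 2 tested called higher and 1 lower) had overlapping sums, of 326 to 679 and 463 to 1207 CPM for the first and 12.4 to 13.9 and 7.70 to 14.1 CPM for the second. In SVX, SVX_VAS and VAS, progesterone-response markers were called higher than in CONT for 9, 8 and 9 of 10. Red blood cell markers were called higher for 5, 4 and 4 of 5. Macrophage markers were called higher for 6, 5 and 5 of 7 tested, with 1 lower in each. Glandular epithelium markers were called higher for 5, 3 and 4 of 8 and lower for 3, 2 and 2. Plasma cell markers were called higher for 4 of 5 tested in each, with 1 lower in SVX. The part of these lists in the members' difference was not tested.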
